A study of Mus musculus with 5 samples.

Results

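The ETS family of transcription factors is described here through 10 of its genes, Spi1, Spib, Spic, Ets1, Fli1, Ets2, Erg, Elf1, Etv6 and Gabpa, out of the 21631 protein-coding genes that RefSeq places on the autosomes and X. The 10 genes were taken by name, but with earlier results of these data known, so their counts beside those of all genes are descriptive. Every summit of PU.1 binding inside one of these genes or within 50 kb of either of its ends was collected, which gave 31 of the 11111 summits listed for the series. A summit is the single base where a called binding site peaks. Binding of PU.1 was measured by chromatin immunoprecipitation and sequencing (ChIP-seq) with the antibody T-21 in AML-246, an acute myeloid leukaemia of C57BL/6 background that lacks p53 and carries a short hairpin RNA (shRNA) against PU.1. The cells came from the spleens of leukaemic recipient mice. The PU.1 Low group was untreated, so that the hairpin was on (2 libraries), and the PU.1 High group had received doxycycline (Dox) for 2 days, which shut the hairpin down and let endogenous PU.1 return (3 libraries). Both groups carry the same p53 deletion and the same hairpin. All libraries come from 1 leukaemia and those of a group are called technical replicates, so they need not come from different mice.

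The deposited data are 1 list of summits called with the high libraries set against the low ones, as the list's own name says. It gives no value per library, so each summit has 1 position and 1 score. There is no spread between libraries and no test with libraries or mice as replicates. The score is the peak caller's value on a −log10 scale. The sources do not say if it is taken from a p-value or from a q-value, and read depth is unknown. A score says how surely a site stood out in this call of high against low libraries and is not a fold change. The list holds no RNA or protein levels, so the expression of the ETS genes and the cells' myeloid markers were not analysed here.

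ETS factors share a DNA-binding domain that recognises a core of GGAA, and they differ in the bases they prefer around it. PU.1, the product of Spi1, belongs to the most divergent branch of the family and drives myeloid and B cell development. Other branches serve blood stem cells, lymphocytes and platelet precursors, or act in most tissues. PU.1 is known to regulate its own gene, and ETS genes are often bound by ETS factors in blood cells.

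All 10 genes had at least 1 summit in their window. The background for such a count was high, since 50.3% of all protein-coding genes had a summit in a window built the same way. Inside the gene or within 10 kb of it, 8 of the 10 genes had a summit, against 27.8% of all genes. Inside the gene itself, 6 of the 10 had one, against 16.6%. The 10 genes are longer than most, with a median length of 67.4 kb against 17.3 kb for all genes. Of the 6 genes with a summit inside, 5 are at least 100 kb long, and 44.6% of all genes of that length had one. Counting only the 10 kb on either side of each gene end, 4 summits were found, 1 each at Spi1, Ets2, Etv6 and Gabpa, so 4 of 10 genes against 22.4% of all genes. The other 27 summits lay farther from both ends of their gene. The 31 summits were unevenly spread: 6 genes had 1 summit each, while Erg and Elf1 had 4, Fli1 had 7 and Etv6 had 10. Etv6 and Fli1 together held 17 of them (54.8%).

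**Figure D1:**
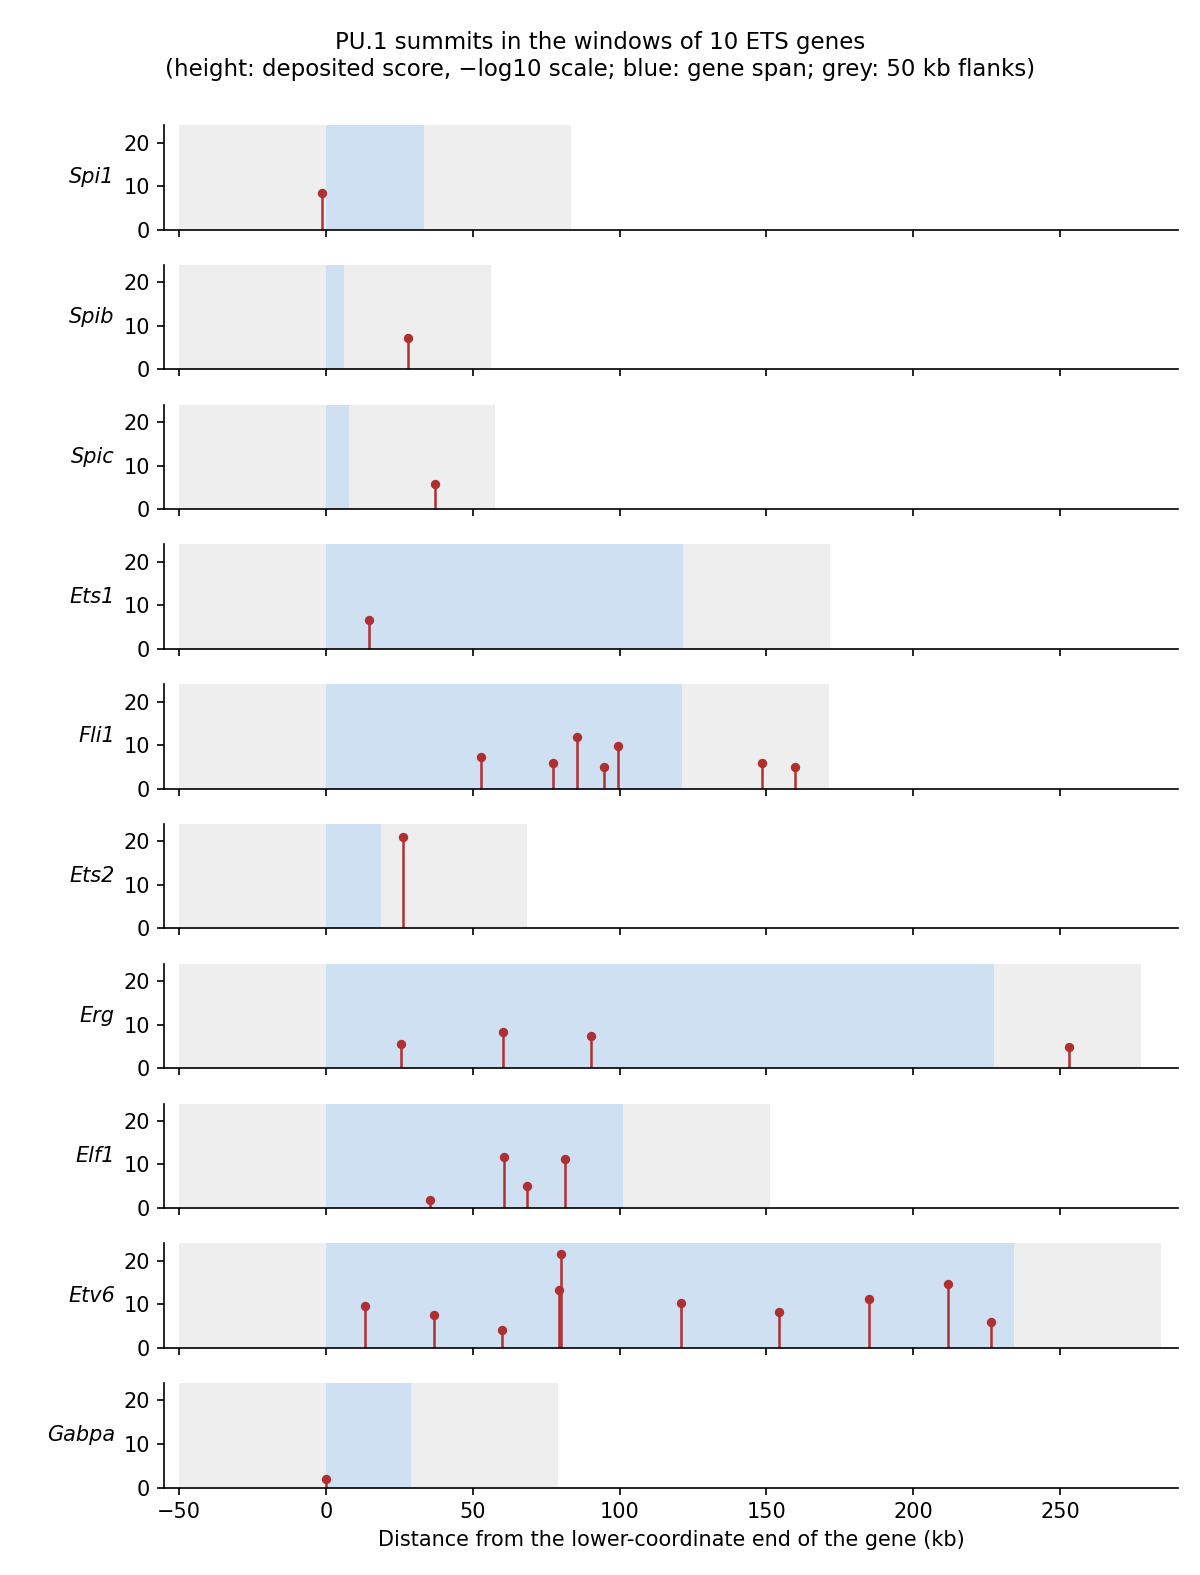
Position (x axis, kb from the lower-coordinate end of each gene) and deposited score (y axis, −log10 scale) of the 31 summits in the windows of the 10 genes. Blue marks the gene, grey the 50 kb on each side. Etv6 carries 10 summits, all inside the gene, and Fli1 carries 5 inside and 2 outside, whereas Spi1, Spib, Spic, Ets1, Ets2 and Gabpa carry 1 each.

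The 3 genes of the PU.1 branch had 1 summit each in their windows, which is also the median over all protein-coding genes. At Spi1 (chromosome 2, 91082374 to 91115759) the only summit stood at 91080977, 1.40 kb beyond the lower end and outside any annotated gene, with a score of 8.31. Of all summits in the list, 52.7% scored at least as high, which puts it near the middle of the list. No summit lay inside Spi1, and the next ones were 261 kb below and 219 kb above the gene. An element upstream of Spi1 is a known place of PU.1 self-regulation, and whether this summit falls in it was not tested.

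Spib encodes the closest relative of PU.1, a factor of B cells and plasmacytoid dendritic cells. Its gene (chromosome 7, 44525995 to 44532087, minus strand) had no summit within 10 kb. The 1 summit of its window, at 44554067 with a score of 7.23, lay 22.0 kb upstream of the Spib start and only 99 bp from the end of Nr1h2, the gene of the oxysterol receptor LXR beta. Spic, needed for the iron-recycling macrophages of the spleen, was similar. Its gene (chromosome 10, 88675269 to 88683023, minus strand) had 1 summit at 88712528, 29.5 kb upstream of its start, with a score of 5.82. The nearest end of a protein-coding gene there was that of Gm4925, 17.0 kb away. Of the 31 summits, these at Spib and Spic were the 2 that lay outside the gene they were assigned to and closer to another protein-coding gene.

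The summit next to Spib fell inside the promoter window of Nr1h2, which is shown for its dense ETS-type letters. The window runs from 250 bases before to 50 after the annotated start (RefSeq, GRCm38.p6). Capitals mark GGAA, or TTCC where GGAA is on the other strand.
Nr1h2, chr7:44553916-44554215, minus strand: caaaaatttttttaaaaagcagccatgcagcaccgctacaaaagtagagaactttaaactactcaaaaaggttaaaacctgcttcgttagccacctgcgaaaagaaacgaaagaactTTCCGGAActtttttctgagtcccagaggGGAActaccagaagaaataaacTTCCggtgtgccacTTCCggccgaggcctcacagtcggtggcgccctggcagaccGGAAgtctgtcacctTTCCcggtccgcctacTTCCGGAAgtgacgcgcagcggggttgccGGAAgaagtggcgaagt
The summit is at base 149 of this window, counted from its 5′ end, and 102 bp before the start. This base lies inside a GGAA on the printed strand, at bases 147 to 150, and 10 copies of GGAA were found in the window, 5 of them on each strand. Of these, 6 were part of CCGGAAG, the form preferred by Ets1 and Gabpa. CCGGAAG was held at least once by 8.92% of all 32619 promoter windows and by 25.7% of those with a summit. GAGGAA, the PU.1-type form that 28.2% of all windows and 49.5% of those with a summit held, was not found in these letters.

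Fli1 and Ets1 lie side by side on chromosome 9, and so do Erg and Ets2 on chromosome 16. Fli1 and Erg are close relatives that maintain blood stem cells and platelet precursors. In both pairs the larger number of summits fell on the Fli1 or Erg side. Fli1 and Ets1 are nearly equal in length (121 and 122 kb), but Erg is far longer than Ets2 (227 against 18.6 kb). No other protein-coding gene lies in the 92.8 kb between Fli1 and Ets1 or in the 116 kb between Erg and Ets2.

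Fli1 (32422204 to 32543432) had 5 summits inside the gene, at 32475190, 32499676, 32507790, 32516843 and 32521644. The 5 stood within 46.5 kb of each other, 4 of them nearer its upper than its lower end, with a median gap of 8.58 kb. Their scores in the same order were 7.20, 5.89, 11.96, 4.99 and 9.75. Another pair, at 32570856 (score 5.91) and 32582086 (score 5.02), lay 27.4 and 38.7 kb beyond the upper end, between Fli1 and Ets1. The strongest of the 7 summits was thus the middle one of the run inside the gene. At least 7 summits in the window were found for 188 protein-coding genes (0.869%).

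Ets1 (32636241 to 32757820), a factor of lymphocytes, had 1 summit in a gene of nearly the same length as Fli1. It stood at 32650968, 14.7 kb inside the lower end, and scored 6.57. The second of the summits between the genes was 54.2 kb from Ets1, just outside its window, so it was counted for Fli1 alone. Across all 10 windows, the summit farthest from its gene was this same one, 38.7 kb from Fli1.

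Erg (95359169 to 95586600, minus strand) had 3 summits inside the gene, at 95384779, 95419477 and 95449488, with scores of 5.64, 8.33 and 7.498. The last, at 95612194 with a score of 4.99, lay 25.6 kb upstream of the outermost of its 3 listed starts. All 4 scores were below the median of all summits. The summit nearest to any listed Erg start was the third, 9.86 kb downstream of the innermost one. At least 4 summits were found for 7.1% of all protein-coding genes, whose median length is 17.3 kb, against 227 kb for Erg.

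Ets2 (95702407 to 95721049, plus strand), whose product responds to Ras and MAP kinase signalling, had a different profile. Its single summit, at 95728845, lay 7.80 kb beyond the upper end, which is 26.4 kb downstream of the start, and scored 21.0. Only 3.02% of all summits scored as high or higher. No summit lay inside Ets2, and no other protein-coding gene overlapped its window.

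Elf1, an activator in T cells, endothelium and blood stem cells, had 4 summits, all inside the gene (chromosome 14, 79481174 to 79582491, plus strand). The summits at 79541809 and 79562495 scored 11.8 and 11.3. The one at 79549684, between them, scored 4.96. The summit at 79516495 stood 821 bp downstream of the second of the 2 listed Elf1 starts and scored 1.85, a value reached by 99.0% of all summits. The nearest end of a protein-coding gene to that last site was Wbp4, at 35.2 kb, against 35.3 kb for Elf1.

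Etv6, also called Tel, encodes a repressor that bone marrow stem cells need and that is fused to other genes in human leukaemias. Its gene (chromosome 6, 134035700 to 134270158, plus strand) held 10 summits, all inside the gene and spread over 213 kb of its 234 kb. The 3 highest scores were 21.6 at 134115802, 14.8 at 134247506 and 13.2 at 134115188. The first and the last of these were 0.614 kb apart and lay 80.1 and 79.5 kb downstream of the start. Of the other 7 summits, 2 scored above 10, at 134220660 (11.1) and 134156504 (10.2). The remaining 5 scored 9.62, 8.27, 7.466, 5.82 and 4.004. The site nearest to the start was 13.3 kb inside the gene, just outside the 10 kb limit, and the site nearest to the other end was 7.83 kb from it, just inside. Summits inside Etv6 had a median gap of 23.5 kb, against 54.9 kb over the genome, which largely restates their number over this length. Among all protein-coding genes, 35 (0.162%) had 10 or more summits in their window.

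Gabpa encodes the DNA-binding subunit of a factor that activates ribosomal, mitochondrial and other widely expressed genes. It was the only one of the 10 genes with a summit in a listed promoter window. Its summit at chromosome 16, 84834963, lay 72 bp inside the gene's lower end and 161 bp before the listed start. The position is shared with Atp5j, a gene of the mitochondrial ATP synthase, whose span and promoter window also hold it. With a score of 1.97, it was among the weakest of the list, 98.7% of which scored at least as high. The window is printed because it is the one place where a promoter of the 10 genes and a summit coincided. Capitals again mark GGAA or TTCC.
Gabpa, chr16:84834874-84835173, plus strand: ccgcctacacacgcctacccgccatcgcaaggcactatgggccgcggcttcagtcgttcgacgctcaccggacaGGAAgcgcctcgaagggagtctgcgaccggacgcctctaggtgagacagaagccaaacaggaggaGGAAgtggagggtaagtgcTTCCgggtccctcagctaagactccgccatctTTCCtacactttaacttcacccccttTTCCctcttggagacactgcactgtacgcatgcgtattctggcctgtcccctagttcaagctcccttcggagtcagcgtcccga
The summit is at base 90 from the 5′ end, 12 bases from the nearest GGAA. The window has 5 copies of GGAA, 2 on the printed strand and 3 on the other. One lies in GAGGAAG at bases 138 to 144, a PU.1-type form in 13.4% of all promoter windows and 31.7% of those with a summit. Another lies in CCGGAAG on the other strand at bases 158 to 164. The GGAA nearest to the summit, at bases 75 to 78, is in neither of these longer forms.

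The promoter table held 10 windows for 7 of the 10 genes, with Spi1, Ets1 and Fli1 unmatched. The other 9 windows, of Spib, Spic, Ets2, Erg, Elf1 and Etv6, held no summit. Over all 32619 windows 2.03% held one. The 9 had between 1 and 6 copies of GGAA, a core found in 96.0% of all windows, and the 6 copies were those of Etv6. The PU.1-type GAGGAA was in none of them, and neither was the Ets1 and Gabpa form CCGGAAG. In none of the 10 windows was the C/EBP-type TTGCGCA found (1.97% of all windows), or the Runx-type TGTGGT (16.6%). The AP-1-type TGANTCA (7.85%) was found in 1 window of Elf1. Each motif was searched on both strands, and GGAA lies within each of the longer ETS forms, so their counts overlap.

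Most of the 31 scores were moderate. They ran from 1.85 to 21.6 with a median of 7.47 (95% interval from order statistics 5.82 to 9.75). The median of all 11111 summits was 8.56, within that interval. Below that value lay 20 of the 31 scores, and 11 were above it. A score of at least 10 was reached by 9 of the 31 (29.0%) and by 37.4% of all summits. These 9 belonged to 4 genes, with 5 at Etv6, 2 at Elf1 and 1 each at Fli1 and Ets2. At that minimum 4 of the 10 genes kept a summit in the 50 kb window, against 26.9% of all genes, and the same 4 kept one inside the gene or within 10 kb, against 12.7%. A score of at least 20 was reached at Etv6 and Ets2, and 3.38% of all genes had such a summit in their window.

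**Figure D2:**
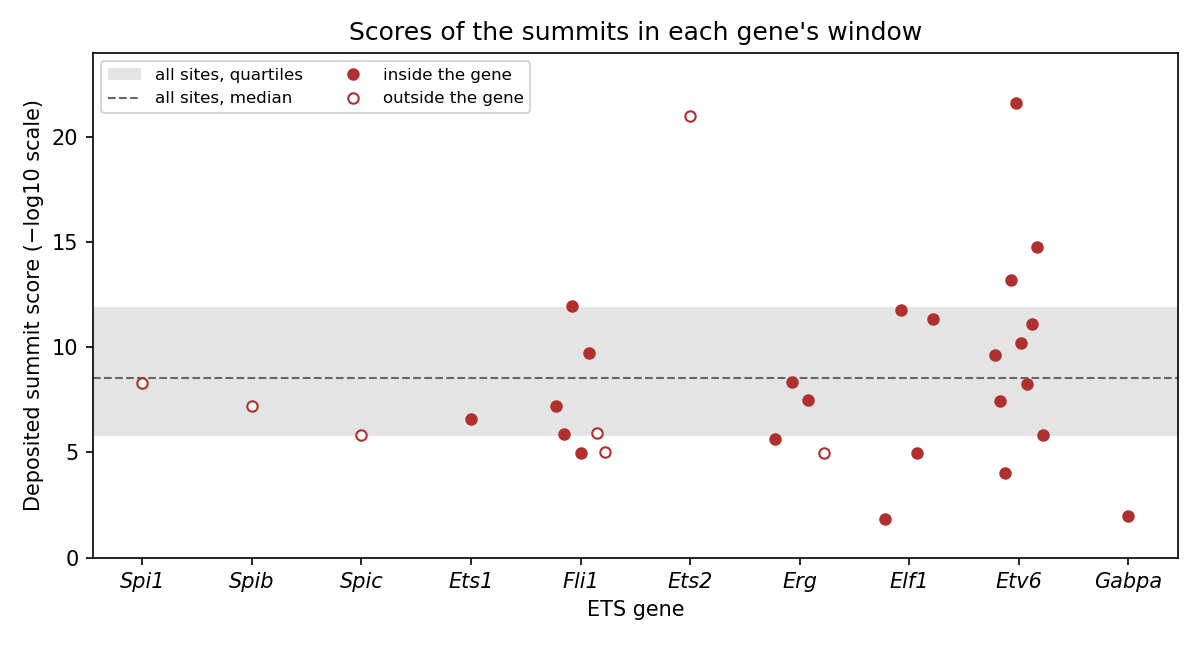
Deposited score (y axis, −log10 scale) of each of the 31 summits by gene, filled when inside the gene and open when outside. The grey band spans the quartiles of all 11111 summits and the dashed line their median of 8.56. Etv6 (21.6) and Ets2 (21.0) hold the 2 scores above 20, and Gabpa and Elf1 hold the 2 below 2.

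Counted per length of DNA, summits were denser inside the 10 genes than in the flanks around them. The 10 windows together cover 1.89 Mb and held 16.4 summits per Mb (95% Poisson interval 11.1 to 23.2, counting error only). The windows of all protein-coding genes held 5.80 per Mb, and the chromosomes as a whole 4.25. Inside the genes the density was 26.6 per Mb (17.1 to 39.6), against 5.61 for all genes. In the flanks it was 7.05 per Mb (2.83 to 14.5), against 6.10 for the flanks of all genes. These flanks cover unlike DNA, since those of all genes leave out every protein-coding gene, while those of the 10 genes include neighbouring genes. The 10 genes themselves make up 47.6% of the length of the 10 windows and held 24 of the 31 summits (77.4%). For all protein-coding genes, 62.0% of the length and 60.0% of the summits were inside genes, with neighbouring genes here counted as inside. Without Etv6, the windows held 13.5 summits per Mb. Of the 24 summits inside genes, 19 lay in Etv6, Fli1 and Elf1. The genes under 50 kb held 1 summit inside, or 10.6 per Mb (0.267 to 58.8). Their flanks held 8.0 per Mb (2.18 to 20.5), so no difference could be told there.

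The genes of at least 100 kb were Ets1, Fli1, Erg, Elf1 and Etv6. Inside these 5, 28.5 summits per Mb were counted (18.1 to 42.8), which was 6.81 times the 4.19 per Mb (4.03 to 4.36) of all 2427 genes of that length. Etv6 had 42.7 per Mb (20.5 to 78.4), Fli1 41.2 (13.4 to 96.3) and Elf1 39.5 (10.8 to 101). Erg had 13.2 (2.72 to 38.5) and Ets1 8.23 (0.208 to 45.8), with intervals that include the value of all long genes. The intervals treat summits as independent, which close summits, such as the 5 inside Fli1, need not be. They are therefore no test of any single gene. Each of the 5 genes had a summit inside, against 44.6% of genes of that length. At least 5 summits inside, as at Fli1 and Etv6, were found in 5.23% of those genes, and 10 or more, as at Etv6, in 0.412%. The 5 genes under 50 kb, Spi1, Spib, Spic, Ets2 and Gabpa, had 1 summit each in their windows, and 47.8% of all genes under 50 kb had at least 1. The difference in density was not tested, since genes are not replicates and these were chosen with earlier results of these data known.

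**Figure D3:**
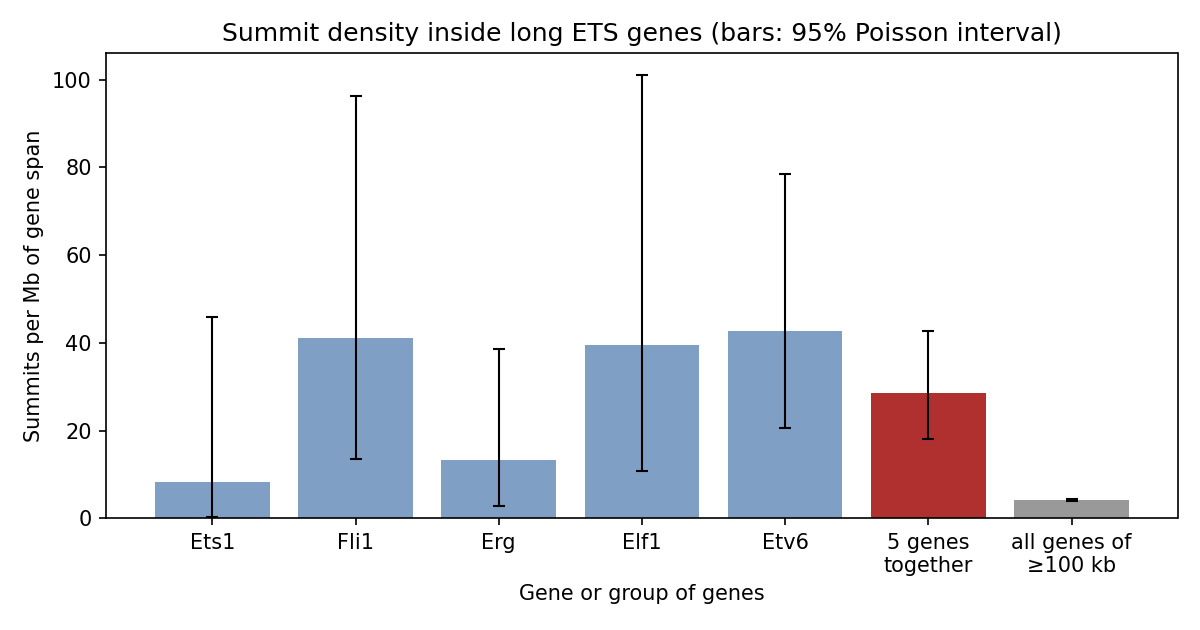
Summits per Mb inside the 5 ETS genes of at least 100 kb, singly (blue), together (red), and inside all 2427 protein-coding genes of that length (grey). Bars start at 0 and error bars are 95% Poisson intervals, which cover counting error only. Etv6, Fli1 and Elf1 stand between 39.5 and 42.7 per Mb, and the intervals of Ets1 and Erg reach down past the grey bar's 4.19.

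**Figure D4:**
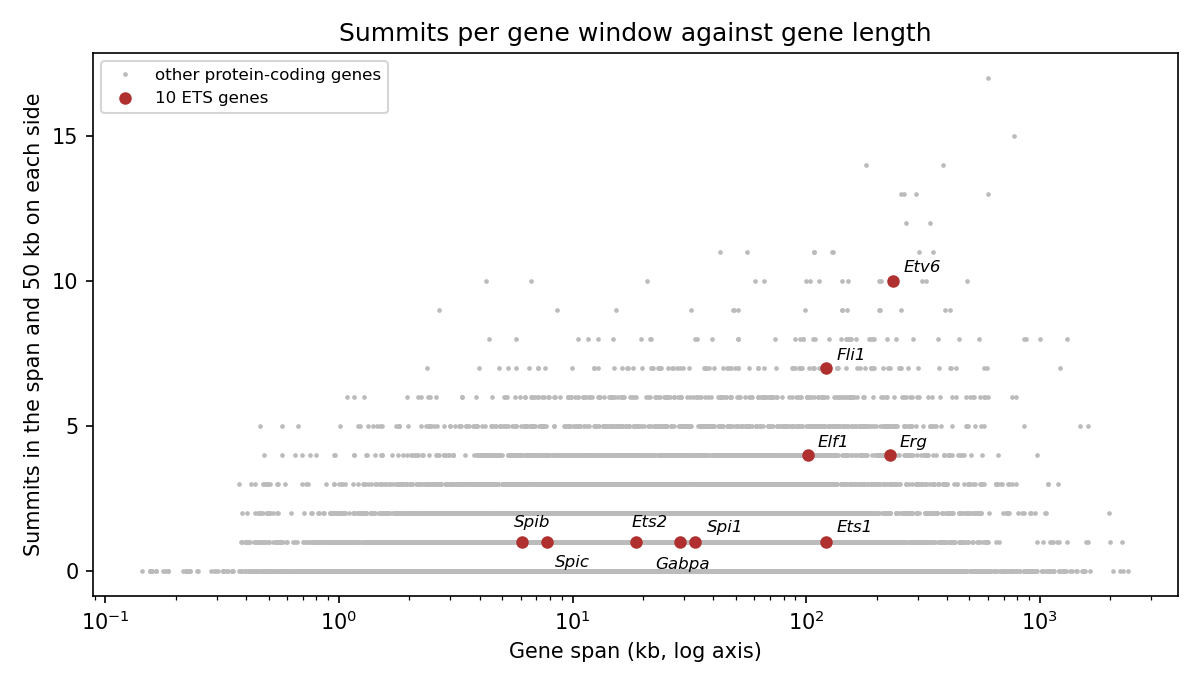
Number of summits in the gene and 50 kb on each side (y axis) against gene length (x axis, kb, log axis) for all 21631 protein-coding genes, with the 10 ETS genes in red. Etv6 with 10 and Fli1 with 7 lie in the sparse upper part of the plot, and the 6 genes with 1 summit lie in its dense lower part.

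The other 16 ETS genes were listed from general knowledge of the family. A summit lay in the 50 kb window of 9 of the 16 (56.2%, against 50.3% of all genes) and inside the gene or within 10 kb of it for 7 (43.8%, against 27.8%). These 7 were Elf2, Elf4, Elk3, Erf, Etv1, Etv3 and Etv5. Elf2, a close relative of Elf1, had 4 summits, 3 of them inside the gene (chromosome 3, 51252720 to 51340683). The one at 51327045 scored 28.1, the highest score in the windows of all 26 ETS genes and reached by 0.639% of all summits. Etv1 had 1 summit of score 14.5 inside the gene. Etv3, a repressor of the family, had 3 in its window with scores from 7.48 to 10.8, of which 1 was inside the gene. The summit inside Elk3 scored 6.40, and that within 10 kb of Etv5 scored 6.98. Elf4 had 1 summit inside the gene, with a score of 3.28, and 1 of score 8.56 at 5.83 kb from it, inside the neighbouring gene Bcorl1. At Erf the summit within 10 kb scored 9.75 and was closer to Gsk3a. Etv2 and Etv4 had summits only beyond 10 kb, 1 inside Zbtb32 and 2 at or in Dhx8. No summit lay in the windows of Elf3, Elf5, Ehf, Elk1, Elk4, Fev and Spdef. Of these, Elf3, Elf5, Ehf and Spdef are factors of epithelia and Fev is a factor of serotonin neurons, while Elk1 and Elk4 are neither. The share of the 16 with a summit (56.2%) was near that of all genes (50.3%). The tissues of the 9 genes with a summit were not compared, and a link between tissue and missing summits was not tested.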

How the data were processed

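PU.1 ChIP-seq libraries of AML-246 spleen cells (3 PU.1 high, 2 PU.1 low) were summarised by the authors in 1 list of summits. The submitters' processing notes name CASAVA 1.8.2, MACS2 and the build mm10. Steps for alignment, read filtering and peak calling were not given in the sources used here. Deposited scores are on a −log10 scale. Depth is unknown, and intervals cover counting error only.

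Positions were made 1-based and set against RefSeq gene spans of GRCm38.p6 (the same chromosome coordinates as mm10) with Python 3.11.15 and pandas 2.3.3. Overlapping windows were merged before densities were computed. Counts were checked on simulated positions. Promoter sequences come from RefSeq. No genome sequence was used, so motifs around summits outside promoter windows were not searched. Exons and introns were not analysed.

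The 10 genes and the list of 16 other ETS genes were chosen with earlier results of these data known. All 10 genes are named, with positions of every summit for genes with up to 6 and of the 3 highest for Etv6. Those of Fli1 are given in full. Of the other ETS genes, those with a summit within 10 kb are described. Neighbouring genes are named where they hold a summit or have the nearest end. Alternatives changed the minimum score, the window, the assignment and the merging of summits. Leaving out single genes was added after seeing the data.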

Additional observations from a re-analysis of the deposited data

How the results depend on the processing

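The largest dependence was on the minimum score. At a score of at least 10, the 10 windows held 9 summits instead of 31, or 4.75 per Mb instead of 16.4, with a median score of 12.0 instead of 7.47. All protein-coding windows then held 2.15 per Mb. Inside the 5 long genes, 9.93 per Mb remained (4.29 to 19.6), against 1.61 for all genes of that length. At that minimum 4 instead of 10 genes had a summit in the 50 kb window (26.9% of all genes). Inside the gene or within 10 kb, 4 instead of 8 had one (12.7% of all genes). Of the 16 other ETS genes, 5 instead of 9 had one in the 50 kb window, against 26.9% of all genes. With the 10 kb taken from the gene ends and the rest of the gene left out, 4 instead of 8 genes had a summit, against 22.4% of all genes. The other alternatives moved no count by more than 1.5 times and left densities and medians within their intervals. Among them, a minimum score of 5 left Gabpa without a summit, so that 9 genes had one in the 50 kb window, against 45.2% of all genes. A 20 kb window left Spib and Spic without one, so that 8 genes had one, against 35.1% of all genes. Giving each summit to 1 gene alone also left Spib and Spic without one. Leaving out each long gene in turn gave 22.7 to 34.6 summits per Mb. No paired analysis was possible because the list has no column for any replicate, so no library could be left out either. The summits were called with the high libraries set against the low ones, so a site bound alike in both groups need not be listed. For this reason, and because depth is unknown, a missing summit does not show missing binding.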

Other observations

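The scores are coarse. The 11111 summits have 1333 different scores, and 10564 of them share their score with at least 1 other summit. Of the 31 summits at the 10 ETS genes, 30 share their score with another. The score of 4.99, found at both Fli1 and Erg, occurs at 148 summits of the list, and the score of 5.82 occurs at both Spic and Etv6.

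Several of the summits inside Etv6 lie near annotated long noncoding RNA genes, chosen for mention after their values were seen. The summits at 134115188 and 134115802 lay 0.766 and 1.38 kb from an end of Gm46978. That at 134247506 was inside Gm17089 and that at 134220660 inside Gm38908. The summit inside Elf1 with the score of 1.85 was inside the pseudogene Gm9243.

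Over all genes, 662 of the 32619 promoter windows held a summit. GAGGAA was found in 49.5% of these 662 windows, against 28.2% of all windows, and CCGGAAG in 25.7%, against 8.92%. The C/EBP-type letters TTGCGCA were found in 2.72%, against 1.97%. The base composition of the 2 sets of windows was not compared. The printed Gabpa window holds both of the ETS forms and the printed Nr1h2 window holds CCGGAAG alone.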
